A study of Mus musculus with 23 samples.

Results

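Zfp185, Slamf9, Dennd2d and Dyrk4 were 4 of the 20145 named genes on an expression array of mouse TM4 cells, and they were selected on their differences between DOM and the DMSO control and between DOM and DOS in these same samples. Each of the 4 was represented by 1 probe of the 55681 non-control probes. Zfp185 was higher after DOM (9.66-fold, a log2 difference from DMSO of 3.27 ± 0.63, SE), and Slamf9 (11.98-fold), Dennd2d (8.95-fold) and Dyrk4 were lower. Dyrk4 was not well above background after DOM, and with its readings raised to a detection floor it was 5.52-fold lower. Those values chose the genes, so they are given as a description with no test.

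TM4 is an immortalized line of Sertoli cells, the somatic cells of the seminiferous tubule that nourish germ cells and seal the blood-testis barrier. Cells were exposed for 48 hr to 100 µM of mono(2-ethylhexyl) phthalate (MEHP), diisononyl cyclohexane-1,2-dicarboxylate (DINCH), dioctyl maleate (DOM), 1,4-butanediol dibenzoate (BDB) or dioctyl succinate (DOS), each dissolved in 1% DMSO, or to 1% DMSO alone. RNA of each sample went to its own 1-colour array, 4 arrays per group and 3 for DOS (replicates 1, 3 and 4), 23 in all on 3 slides. All groups were the same single cell line in culture. The study's methods call the samples of a treatment biological replicates, while the labels do not say how the cultures were kept apart, and p-values measure the spread between these samples.

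Zfp185 encodes a LIM domain protein that binds the actin cytoskeleton. Slamf9 encodes a surface receptor of the SLAM family, immunoglobulin-like proteins known mainly from leukocytes. Dennd2d encodes a DENN domain protein. Proteins with this domain load GTP onto Rab GTPases, the switches of membrane traffic, and the DENND2 group acts on RAB9. Dyrk4 encodes a dual-specificity kinase, which phosphorylates its own tyrosine while it is made and afterwards serine and threonine of other proteins, and its transcript is known from testis.

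The 250 bases before the start site of each gene are shown because 3 of the genes were lower and 1 was higher with DOM. They were taken from the RefSeq promoter table, build GRCm38.p6, in which all 4 symbols were found, and are written 5' to 3' on the gene's strand. The windows are chrX:72987089-72987338 (plus strand) for Zfp185, chr1:172475110-172475359 (plus) for Slamf9, chr3:106482181-106482430 (plus) for Dennd2d and chr6:126921840-126922089 (minus) for Dyrk4. Dennd2d has 3 listed start sites, and the window of the first is shown. Capitals mark the letters of 6 motifs searched on both strands: the letters TATAAA of the core promoter element near many start sites, the CCAAT box as spelled in its name, GGGCGG for the GC box, TGANTCA for the binding site of AP-1, TGACNNNGC for the core of the antioxidant response element, and CACGTG for the E-box.
Zfp185: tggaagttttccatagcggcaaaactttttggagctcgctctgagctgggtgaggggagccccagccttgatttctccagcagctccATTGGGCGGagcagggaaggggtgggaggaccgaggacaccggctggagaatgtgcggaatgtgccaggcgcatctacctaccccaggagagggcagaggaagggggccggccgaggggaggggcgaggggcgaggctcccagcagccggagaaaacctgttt
Slamf9: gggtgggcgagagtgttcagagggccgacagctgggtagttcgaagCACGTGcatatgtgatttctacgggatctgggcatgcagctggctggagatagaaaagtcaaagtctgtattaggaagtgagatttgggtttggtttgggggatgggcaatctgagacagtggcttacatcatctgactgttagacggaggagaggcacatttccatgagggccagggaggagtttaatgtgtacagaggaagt
Dennd2d: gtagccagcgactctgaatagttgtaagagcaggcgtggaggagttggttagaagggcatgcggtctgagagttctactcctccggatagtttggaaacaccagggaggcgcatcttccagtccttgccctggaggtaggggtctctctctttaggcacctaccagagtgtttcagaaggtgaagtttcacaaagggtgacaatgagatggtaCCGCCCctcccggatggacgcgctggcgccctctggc
Dyrk4: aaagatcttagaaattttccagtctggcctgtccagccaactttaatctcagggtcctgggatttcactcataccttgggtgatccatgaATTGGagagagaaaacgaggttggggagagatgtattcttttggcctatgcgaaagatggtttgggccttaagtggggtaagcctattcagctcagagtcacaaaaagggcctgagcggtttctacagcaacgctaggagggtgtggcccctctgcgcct
The Zfp185 window held a CCAAT box on the opposite strand (bases -163 to -159 from the start) that overlapped a GC box (bases -160 to -155). The Slamf9 window held an E-box at bases -204 to -199. A GC box lay on the opposite strand of the Dennd2d window at bases -37 to -32, and a CCAAT box on the opposite strand of the Dyrk4 window at bases -160 to -156. No motif was present in all 4 windows. Of 32851 windows of this length, 33.8% held a CCAAT box, 32.7% a GC box and 6.02% an E-box. The core promoter letters (in 12.4% of windows), the AP-1 site (6.75%) and the antioxidant response element core (10.2%) were in none of the 4, which says only that these letters are not in these bases. The GC content was 63.2% for Zfp185, 50.8% for Slamf9, 56.0% for Dennd2d and 49.2% for Dyrk4, with a median of 52.4% over all windows.

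A level is the log2 of the processed signal relative to the 75th percentile of the same array, so that a gene at 0 was as bright as that percentile. Levels of different genes come from different probes and are not set against each other. The 75th percentile ran from 204.6 to 350.7 intensity units over the 23 arrays, and 43.4% to 52.2% of spots were well above background. Of 20 Sertoli cell markers, 10 were well above background on every DMSO array, among them Gata4, Dhh, Inhbb, Nr5a1 and Dmrt1. Amh, Wt1, Cldn11, Fshr, Trf, Krt18, Gdnf, Gata1 and Shbg were well above background on no DMSO array. Several defining transcripts of the cell type were thus not detected in the vehicle cultures. With the compounds, Gdnf was detected on 2 MEHP arrays and 1 BDB array, Amh on 1 DINCH array, and Trf and Krt18 each on 1 DOM array. Of 6 Leydig cell markers on the array, 1 (Cyp17a1) was well above background on every DMSO array. Of 6 peritubular myoid and smooth muscle markers, 4 were (Acta2, Cnn1, Tagln and Actg2). The summed signal of the 20 markers ran from 15.1 to 29.0 times the 75th percentile over the DMSO arrays and from 44.0 to 70.1 over the DOM arrays, where Inhbb was the brightest (level 5.72). Its part in the results below was not tested.

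Zfp185 was higher on all 4 DOM arrays than on any other array. Its levels were -0.42, -1.10, -1.50 and 0.06 on DOM replicates 1 to 4, and -5.57, -3.56, -3.44 and -3.48 on DMSO replicates 1 to 4. DMSO replicate 1 lay far below the other DMSO arrays and was the only one of them not well above background. Without it the DOM difference was 2.75 rather than 3.27. The means were -0.74 ± 0.70 (SD, n = 4) for DOM and -4.01 ± 1.04 (SD, n = 4) for DMSO. MEHP (-3.07, -2.87, -2.67 and -3.43) and DINCH (-3.45, -2.89, -3.22 and -2.64) came next, and their arrays overlapped. DOS lay within a narrow band at -3.55, -3.54 and -3.58, below all MEHP and DINCH arrays and overlapping DMSO. BDB read -5.90, -3.85, -3.46 and -3.95, with the first not well above background, and overlapped DMSO.

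Slamf9 was highest under DINCH and lowest under DOM. Its levels on DOM were -2.67, -3.41, -2.02 and -3.57, against 0.89, 0.67, 0.56 and 0.55 on DMSO. The DOM arrays all lay below every other array, and all were well above background, so the 11.98-fold difference (log2 -3.58 ± 0.37, SE) was measured on both sides. DINCH read 1.52, 1.32, 1.13 and 1.33, above all DMSO arrays and above all BDB arrays (0.91, 0.99, 0.64 and 0.89). MEHP (0.80, 0.38, 0.60 and 0.71), DOS (1.05, 0.48 and 0.49), BDB and DMSO overlapped. Of 12 macrophage and myeloid markers, 11 were on the array, and the same 4 of them (Csf1r, Itgam, Cd14 and Aif1) were well above background on every DMSO and every DOM array. Ptprc, Adgre1, Lyz2, Tyrobp, Fcgr1, Mrc1 and Spi1 were above it on none. The summed signal of the 11 ran from 14.6 to 17.1 times the 75th percentile over DMSO and from 16.4 to 22.5 over DOM. Itgam, the brightest, weighs most in this sum (mean level 3.35 in DMSO and 3.79 in DOM). Cd14 and Aif1 also read higher with DOM, and Csf1r read lower (1.83 and 1.67). The part of such cells in the Slamf9 difference was not tested. In RNA of a whole culture, fewer cells that express a gene and less RNA of it per cell cannot be told apart.

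Dennd2d was not detected on part of the DOM arrays. DMSO levels were -0.38, -0.96, -0.70 and -1.13, and DOM levels -3.95, -3.71, -3.60 and -4.55. Each DOM array was lower than every array of the other groups, but replicates 2 and 4 were not well above background, so that 2 of the 4 DOM arrays measured the gene. The 8.95-fold difference (log2 -3.16 ± 0.27, SE) includes both readings that were not well above background. BDB was the highest group at -0.58, 0.02, -0.89 and -0.29 and overlapped DMSO. DINCH (-1.01, -1.14, -0.68 and -1.21), MEHP (-1.42, -1.59, -1.02 and -1.24) and DOS (-1.37, -1.38 and -1.48) followed, each overlapping its neighbour in that order.

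Dyrk4 was well above background on no DOM array and on every array of the other 5 groups. Its DMSO levels were -1.79, -2.33, -2.34 and -1.74, and its DOM readings -6.49, -6.34, -6.93 and -5.10. The lowest signal that counted as well above background on each DOM array was taken as a detection floor. With the DOM readings raised to it (mean -4.52), Dyrk4 was 5.52-fold lower than DMSO. The measured means were -2.05 ± 0.33 for DMSO and -6.22 ± 0.78 for DOM (SD, n = 4 each). The floor is not a strict limit, because brighter spots can also fail detection. Dennd2d read -3.71 on DOM replicate 2 and was not well above background. BDB (-2.36, -1.71, -3.65 and -2.04) overlapped DMSO, with replicate 3 below the rest. DOS (-3.67, -3.27 and -3.27), DINCH (-2.73, -3.90, -3.69 and -3.56) and MEHP (-3.85, -3.70, -4.12 and -3.87) lay below all DMSO arrays. DINCH overlapped both DOS and MEHP, while the DOS arrays all lay above the MEHP arrays. Of 12 germ cell markers, 4 were well above background on every DMSO array (Prm1, Prm2, Tnp1 and Acr), and 3 of the 12 were on every DOM array. Ddx4 and Dazl were above it on none of these arrays. The summed signal of the list was 0.75 to 1.00 times the 75th percentile over DMSO and 0.680 to 0.918 over DOM, and its part in the Dyrk4 difference was not tested.

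**Figure D1:**
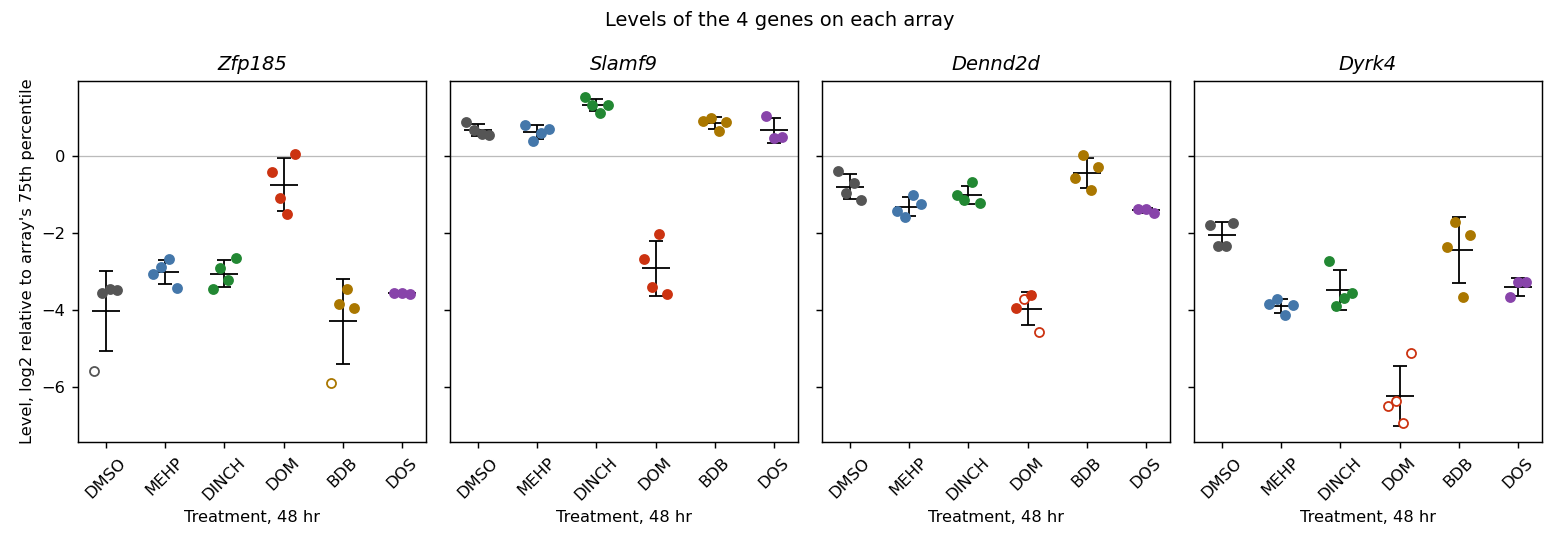
Level of each gene (log2 relative to the array's 75th percentile) on every array, by treatment, with bars for the mean and SD. Filled circles were well above background and open circles were not. The 4 DOM arrays lie above all others for Zfp185 and below all others for Slamf9, Dennd2d and Dyrk4.

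Over all genes, 8.8% of 12001 tested were called higher after DOM than after DMSO and 9.76% were called lower, at an adjusted p below 0.05 and more than 1.5-fold by limma. The 1 higher and 3 lower genes here were selected on that contrast, and nothing is read from their count. The DOM arrays were also set against the DMSO arrays of the same slide. For Zfp185 the log2 difference was 4.81 on slide 1, which holds the low DMSO replicate 1, 2.00 on slide 2 and 3.54 on slide 3. Slamf9 differed by -3.93, -2.63 and -4.12, Dennd2d by -3.45, -2.77 and -3.42, and Dyrk4 by -4.62, -4.59 and -3.37 in readings not well above background under DOM. The direction was thus the same on the 3 slides for each gene. Normexp background correction was run with an offset of 50 intensity units added to every spot. The log2 differences were then smaller, at 1.51 for Zfp185, -2.37 for Slamf9, -1.47 for Dennd2d and -1.21 for Dyrk4. A constant added to every spot makes log2 differences of dim spots smaller, and its share in the change was not tested.

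**Figure D2:**
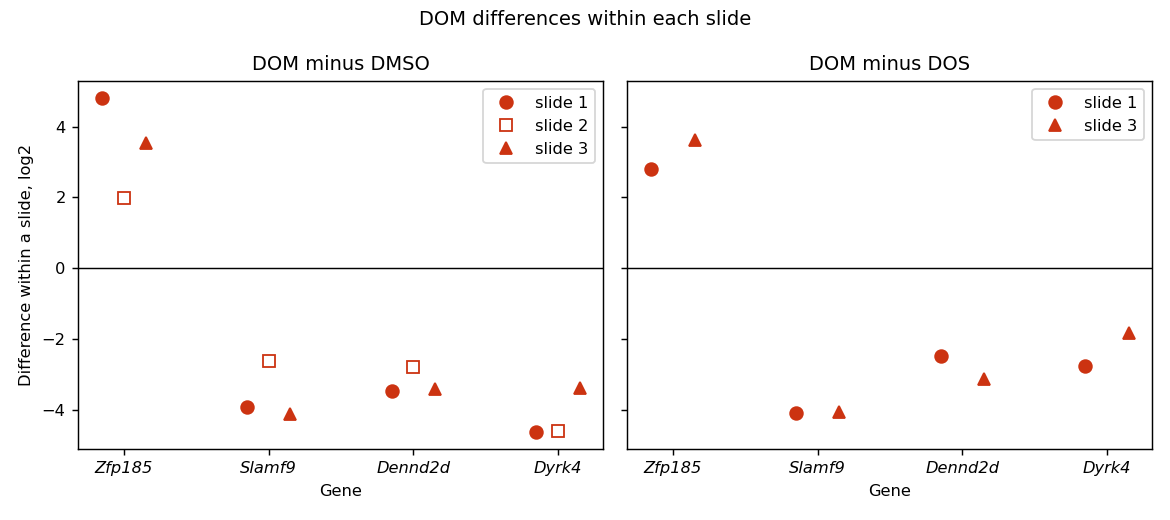
Log2 difference between the mean DOM level and the mean DMSO (left) or DOS (right) level on the same slide, by gene and slide. Zfp185 lies above 0 and the other genes below 0 on every slide that holds both groups, and slide 2 holds no DOS array.

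DOM and DOS are dioctyl diesters at the same dose and time, and they differ in the core, which carries a carbon-carbon double bond in the maleate and is saturated in the succinate. Over all genes, 6.04% of 11928 tested were higher with DOM than with DOS and 7.46% were lower, and again the 4 genes were selected on this contrast. Zfp185 was 7.05-fold higher with DOM (log2 2.82 ± 0.35, SE). Slamf9 was 12.02-fold lower (log2 -3.59 ± 0.40) and Dennd2d read 5.85-fold lower (log2 -2.55 ± 0.21), again with 2 of its 4 DOM arrays not well above background. With normexp the log2 differences from DOS were 1.36, -2.42, -1.11 and -0.69 in the order Zfp185, Slamf9, Dennd2d and Dyrk4. With its DOM readings raised to the detection floor, Dyrk4 was 2.16-fold lower. This was smaller than against DMSO because DOS itself read below DMSO. Within slide 1 the log2 differences were 2.79, -4.08, -2.47 and -2.75 in the order Zfp185, Slamf9, Dennd2d and Dyrk4. Within slide 3 they were 3.62, -4.06, -3.12 and -1.83 in the same order. Both comparisons use the same DOM arrays and are not independent.

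The 4 other compounds were each compared with DMSO, a contrast that did not use the DOM arrays but used the DMSO arrays on which the genes had been chosen. The DOS arrays had also entered a contrast that chose them. Dyrk4 fell with MEHP by 1.83 on the log2 scale (3.57-fold, 95% interval -2.21 to -1.46, limma adjusted p = 0.00481), where 1.53% of all 11947 genes tested were called. Each of the 4 MEHP arrays lay below every DMSO array. Dyrk4 also fell with DINCH, by 1.42 (2.68-fold, interval -1.999 to -0.84, adjusted p = 0.0120), where 6.97% of 11913 genes were called, and again all 4 arrays were below the DMSO arrays. Without the filter on dim probes the adjusted p was 0.0635 for MEHP and 0.0871 for DINCH. With normexp the DINCH difference was -0.54, under 1.5-fold.

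With DOS, Dyrk4 was -1.35 below DMSO on the log2 scale (interval -1.80 to -0.91), and all 3 arrays lay below the DMSO arrays. Its unadjusted p of 9.44e-05 became 0.344 after Benjamini-Hochberg adjustment in limma, in a comparison in which 0% of 11933 genes were called and 756 had an unadjusted p below 0.05. BDB gave -0.39 (interval -1.23 to 0.45, adjusted p = 0.706), where 0% of 11965 genes were called and 1953 had an unadjusted p below 0.05. DOS arrays lay in the same set of slide positions as the DMSO arrays and MEHP, DINCH and BDB arrays in the other set, so that for those 3 compounds position and treatment cannot be told apart.

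Slamf9 rose with DINCH by 0.66 on the log2 scale (1.57-fold, interval 0.39 to 0.92, limma adjusted p = 0.0123), opposite in sign to its DOM difference. Fitted with all 6 groups together the adjusted p was 0.0523, and without the filter on dim probes 0.105. It was not called with MEHP (-0.04, interval -0.31 to 0.22), BDB (0.19, interval -0.06 to 0.45) or DOS (0.01, interval -0.37 to 0.38). Dennd2d passed the test with none of these 4 compounds. Its differences were -0.52 with MEHP (interval -0.93 to -0.11, adjusted p = 0.190), -0.61 with DOS (-1.01 to -0.21, adjusted p = 0.509), -0.22 with DINCH (-0.62 to 0.19) and 0.36 with BDB (-0.13 to 0.85). The unadjusted limma p was 0.0178 for MEHP and 0.00741 for DOS.

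Zfp185 was 1.00 above DMSO with MEHP (interval -0.02 to 2.03, limma adjusted p = 0.317) and 0.96 with DINCH (-0.04 to 1.97, adjusted p = 0.211), and neither was called. Both values rest in part on the low DMSO replicate 1: without that array they were 0.49 and 0.44 (limma adjusted p = 0.173 and 0.198). All 4 MEHP arrays and 3 of the 4 DINCH arrays lay above every DMSO array, the lowest MEHP array narrowly (-3.43 against -3.44). With DOS it read 0.45 above DMSO (-0.65 to 1.56), and with BDB it was not tested because no group of that comparison was above background on every array. All compounds share the 4 DMSO arrays, so a deviation of those arrays enters each value.

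**Figure D3:**
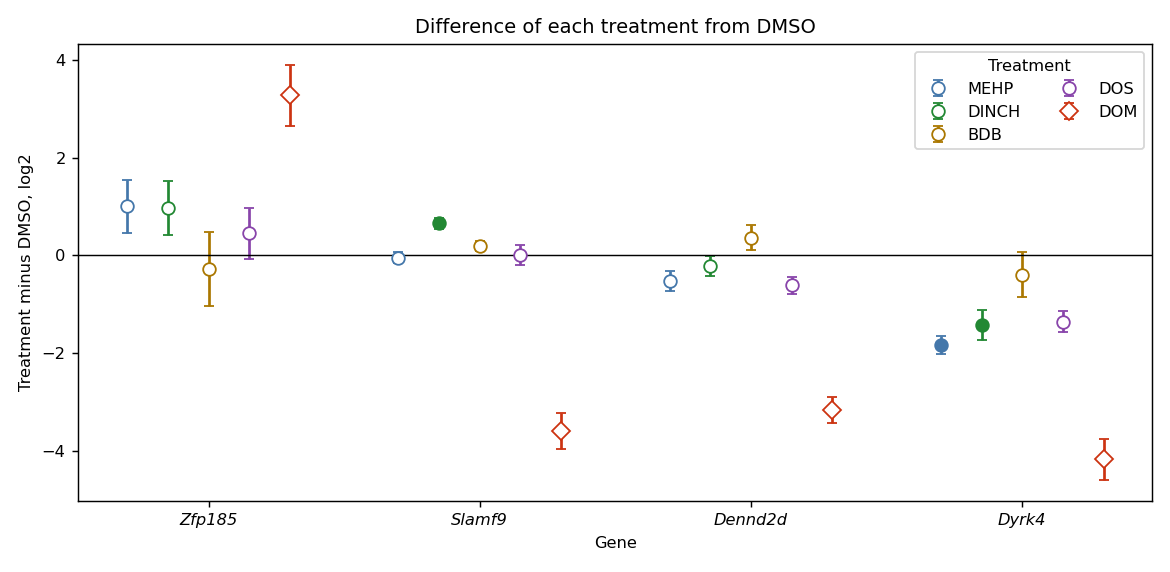
Log2 difference of each treatment from DMSO for each gene, with bars for the SE of the difference. Filled circles passed the limma test, open circles did not or were not tested, and open diamonds are DOM, shown as a description. MEHP and DINCH pass for Dyrk4 and DINCH for Slamf9, and the Dyrk4 value for DOM is a reading not well above background.

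The 12 arrays of MEHP, DINCH and BDB entered neither of the DOM contrasts that chose the genes, whereas the 3 DOS arrays entered DOM against DOS. Earlier results of these data were known when the genes were chosen, so a test on the 12 arrays is not fully apart from that choice. A moderated F test over MEHP, DINCH and BDB, added after the data were seen, called 21.7% of 11972 genes at an adjusted p below 0.05. Slamf9 differed among these compounds (limma adjusted p = 0.00483), with DINCH above MEHP by 0.70 on the log2 scale and above BDB by 0.46 (95% interval 0.21 to 0.72). Dennd2d also differed (adjusted p = 0.0177), with MEHP below BDB (-0.88, interval -1.30 to -0.47) and DINCH below BDB (-0.58, interval -0.99 to -0.17). That call was lost without BDB replicate 2 or 4 (adjusted p = 0.0536 and 0.0584). For Dyrk4 the adjusted p was 0.0319, with MEHP below BDB (-1.44, interval -2.22 to -0.67), and the call was lost in 7 of the 12 fits that left out 1 array, namely any MEHP array or BDB replicate 1, 2 or 4. Zfp185 missed the threshold (adjusted p = 0.0725). Its widest difference, MEHP above BDB by 1.28 (0.37 to 2.19), contains the BDB array that was not well above background, and without that array the range of means was 0.74. With the DOS arrays in the fit the same 3 genes were called, among 21.5% of 12025 genes (adjusted p = 0.0103 for Slamf9, 0.00720 for Dennd2d and 0.0361 for Dyrk4), with 0.0820 for Zfp185. The DOS arrays had a part in choosing the genes, so that fit is not independent of the choice, its Dyrk4 call was lost in 10 of the 15 fits that left out 1 array, and position on the slide cannot be told apart from DOS against the other 3. The intervals are not adjusted for the number of pairs.

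Genes related to each of the 4 were followed as lists that hold none of the 4. Among 41 genes of actin-linked LIM domain proteins, 34 were tested for DOM against DMSO, 5 rose and 29 were not called, against the 8.8% of all genes that rose. Those that rose were Csrp2 (0.80 ± 0.15 log2, SE, limma adjusted p = 0.00368), which binds actin bundles, Mical2 (0.78 ± 0.23), an actin-oxidizing enzyme, Lpp (0.69 ± 0.23) and Fhl2 (0.61 ± 0.18), both of focal adhesions, and Limd2 (0.62 ± 0.10). Their differences were all below 1 log2 unit, where Zfp185, which was selected on this contrast, differed by 3.27. Leaving out 1 array at a time gave 2 to 5 called genes, and the lowest number came without DOM replicate 1 or 2 or DMSO replicate 2 or 4, with 3 without DMSO replicate 1 or 3. It was 2 also without the filter on dim probes or with detection required on only 1 array. The median over the 34 was 0.23, beside -0.03 over all genes tested. Against DOS, 35 were tested, and Lmo7 (-0.69 ± 0.14) and Csrp1 (-0.63 ± 0.14) fell, where 7.46% of all genes fell. The number that fell was 0 without DOS replicate 1 and 1 without DOM replicate 2 or 4 or DOS replicate 4. Without DOM replicate 4, 1 gene also rose. With the replicate block 3 fell, and under normexp or without the filter on dim probes none was called.

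Of 11 genes of SLAM family receptors and their adaptors, 5 were tested for DOM against DMSO. Fyn, the Src family kinase that SLAM receptors recruit, fell (-0.59 ± 0.16 log2, SE, limma adjusted p = 0.0214) and 4 were not called, with a median of -0.19 over the 5, where 9.76% of all genes fell. No gene of the list was called without DMSO replicate 1 or 3 or DOM replicate 4, under quantile normalization or normexp, in the deposited log2 table, or without the filter on dim probes. Slamf6 (-0.25 ± 0.17) and Cd48 (-0.19 ± 0.16), receptors of the same family, were not called. Against DOS none of the 5 passed in limma, and 0 had an unadjusted p below 0.05, where 6.04% of all genes rose and 7.46% fell.

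Of 22 genes for DENN domain proteins and RAB9, 21 were on the array and 17 were tested against DMSO. Dennd3, an activator of another Rab GTPase, rose (0.77 ± 0.16 log2, SE, limma adjusted p = 0.00782) and 16 were not called, where 8.8% of all genes rose. Under normexp or without the filter on dim probes none of the list was called, and with the slide as a block 2 were (1 higher, 1 lower). Dennd2a (0.48 ± 0.11) and Dennd2c (0.45 ± 0.13), of the same group as Dennd2d, were higher by less than 1.5-fold and were not called, and Rab9 read 0.44 ± 0.09. Against DOS, Dennd5b fell (-0.61 ± 0.12), and 3 genes were called rather than 1 with the replicate block, 4 with the slide as a block, 2 in the deposited log2 table, and none under normexp or without the filter. The number called against DOS ran from 0 to 3 when 1 array was left out. It was 0 without DOM replicate 1 or DOS replicate 3 or 4. It was 2 without DOM replicate 2 (1 higher, 1 lower) and 3 without DOM replicate 3 (2 higher, 1 lower). Against DMSO it was 2 (1 higher, 1 lower) without DOM replicate 1 or DMSO replicate 2. The medians over the 17 were 0.23 against DMSO and 0.20 against DOS.

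All 12 listed kinases of the DYRK, HIPK and CLK families were tested against DMSO. Dyrk3, a kinase that dissolves stress granules, fell by 0.85 on the log2 scale (SE 0.12, limma adjusted p = 0.00131) with all 4 DOM arrays below the DMSO arrays, and 11 were not called, where 9.76% of all genes fell. Under normexp none of the list was called. Dyrk3 also fell against DOS, by 0.84 (SE 0.14), where 7.46% of all genes fell, a call that was lost without the filter. Dyrk1a (-0.16 ± 0.10), Dyrk1b (-0.47 ± 0.17) and Dyrk2 (-0.13 ± 0.14) were not called. The medians over the 12 were -0.05 against DMSO and -0.09 against DOS.

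**Figure D4:**
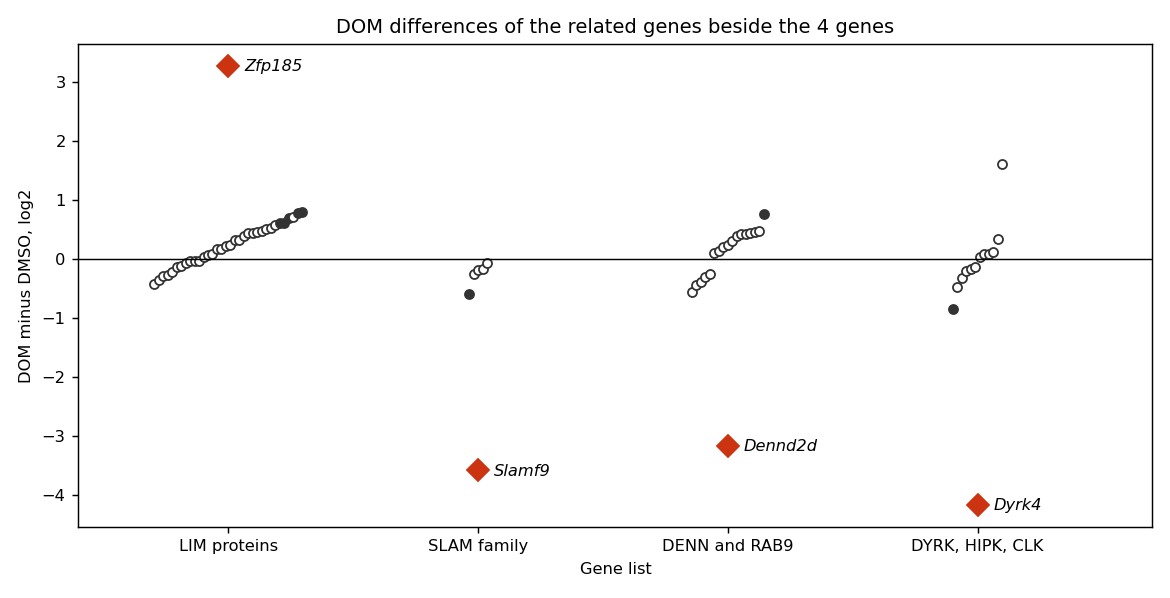
Log2 difference between DOM and DMSO of each tested gene in 4 lists of related genes, sorted within a list, with filled circles for called genes, and diamonds for the gene each list belongs to. The diamonds lie outside the range of their lists, and that of Dyrk4 is a reading not well above background. The 4 genes were selected on this contrast, so nothing is read from their place outside the lists.

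The named genes most like each of the 4 were ranked by Pearson correlation of levels over the 23 arrays, among 12147 genes well above background on at least 12 arrays. The correlations are descriptions over arrays that share groups and slides. For Zfp185 the highest were Tab3 (r = 0.94), Gsta4 (0.93), Aldh3b1 (0.93), Decr2 (0.92) and Rap1gap (0.92), and over the 19 arrays without DOM the same genes gave 0.76 to 0.82. For Slamf9 they were Cenpa (0.99), Ccnb1 (0.98), Ccnb2 (0.98), Ube2c (0.98) and Cdc20 (0.98), which gave 0.53 to 0.74 without DOM. For Dennd2d they were H3c11 (0.96), Rbbp8 (0.96), Irx1 (0.96), Cd34 (0.96) and H3c1 (0.96), with 0.52 to 0.87 without DOM. H3c11 and H3c1 are histone genes with near-identical copies, so their probes may read more than 1 gene.

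For Dyrk4 the closest genes were Saa3 (0.95), Sars (0.94), Tcea1 (0.94), Erlin1 (0.93) and Arap3 (0.92), and without the DOM arrays these gave 0.73 to 0.90. Saa3, an acute-phase serum amyloid protein, read -0.37 on average in DMSO and -5.68 in DOM. That DOM mean lies below the mean detection floor used for Dyrk4 (-4.52). Arap3 (-5.21) and, among the genes closest to Dennd2d, H3c1 (-4.63) also lay below it in DOM. Their correlations over the 23 arrays thus include very dim readings. Gsta4, a glutathione transferase among the genes closest to Zfp185, read -1.86 in DMSO and 0.91 in DOM, and Cenpa, the centromeric histone closest to Slamf9, read 4.48 and 2.34.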

How the data were processed

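RNA of TM4 cells was labelled with Cy3 and hybridized to Agilent mouse 8x60K arrays. The authors extracted spot intensities with Feature Extraction 11.5.1.1, which subtracted background and removed spatial trends. The deposited intensity of a spot is linear and carries no scaling between arrays. A second deposited table, of log2 expression set to a percentile and centred per probe by the authors, correlated with each array's own values at 0.9995 or more and served as an alternative. The genome build is not given in the sources used here. Arrays have no read depth, and their number limits the precision.

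Here each spot's log2 processed signal (floor 1) had the 75th percentile of the array's non-control spots subtracted. Outlier spots were dropped, none of them from the 4 genes, and repeated spots averaged. Probes took gene symbols from their RefSeq accessions, and a gene was read from its brightest probe. A comparison included probes above background, and at or over the array's 20th percentile, on every array of 1 of its groups or more. Only arrays of the groups compared entered each fit. Software was R 4.3.3 with limma 3.58.1, and version 1.17.8 of data.table for reading. P-values were adjusted by Benjamini-Hochberg across tested probes, and calls needed an adjusted p below 0.05 and more than 1.5-fold. The fits were tested on simulated data. Promoter windows and figures came from Python 3.11.15 with matplotlib 3.10.9.

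The 4 genes, the lists and the tests were chosen with earlier results of these data known, and the motifs after the windows were seen. The text names the 4 genes, the called genes of each list (at most 5), close relatives chosen after their values were seen, the markers that define a cell type, and the 5 genes most correlated with each of the 4. Same-numbered arrays deviated together for DINCH (r 0.17 to 0.50), BDB (0.25 to 0.44) and DOS (0.20 to 0.45) against DMSO and for DOM against DOS (0.10 to 0.40), every pair above 0.1 (lowest 0.1003), on the evidence of the values alone. For DOM and MEHP against DMSO not every pair was. All values given come from fits without the pairing unless the replicate block is named. Alternatives were quantile normalization, normexp (offset 50), the deposited table, outliers kept, a slide block, a replicate block, a fit of all groups together, 2 other filters, any probe of a gene, each slide alone, and leaving out each array in turn. An F test without the DOS arrays was added after the data were seen.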

Additional observations from a re-analysis of the deposited data

Results flagged for a closer look

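Zfp185 on DMSO replicate 1 stood apart from the other DMSO arrays, with a level of -5.57 where they lay between -3.56 and -3.44. Of 20 groups of 4 arrays examined for the 4 genes in this way it was the 1 that stood out, and chance alone gives about 1 in 20. The spot was not marked as an outlier by the extraction software and was not well above background. The log2 difference of Zfp185 between DOM and DMSO was 3.27 with the array and 2.75 without it.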

How the results depend on the processing

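No difference between DOM and DMSO or DOS changed sign for the 4 genes under any alternative, and 111 of 128 such values moved by less than 1 SD. Normexp gave 1.51, -2.37, -1.47 and -1.21 (log2) against DMSO for Zfp185, Slamf9, Dennd2d and Dyrk4, and 1.36, -2.42, -1.11 and -0.69 against DOS. Within slides the values that moved were 4.81 and 2.00 (Zfp185), -2.63 and -4.12 (Slamf9), -2.77 (Dennd2d) and -3.37 (Dyrk4) against DMSO, and 3.62, -3.12 and -1.83 (Zfp185, Dennd2d and Dyrk4) against DOS. Leaving out 1 array gave, against DMSO, 2.75 to 3.53 (Zfp185), -3.88 to -3.36 (Slamf9), -3.28 to -2.96 (Dennd2d) and -4.54 to -3.93 (Dyrk4), and against DOS 2.55 to 3.07, -3.89 to -3.37, -2.66 to -2.35 and -3.18 to -2.58. The cause was not tested.

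Of 268 values for the other compounds against DMSO, 263 kept their side of the threshold. Calls were lost for Dyrk4 with MEHP (-1.83, adjusted p = 0.0635) and DINCH (-1.42, 0.0871) and for Slamf9 with DINCH (0.66, 0.105) in limma without the filter, where more probes are tested, for Dyrk4 with DINCH under normexp (-0.54), and for Slamf9 with DINCH with all groups in 1 fit (0.66, 0.0523). Leaving out 1 array kept these 3 calls, with adjusted p from 0.0126 to 0.0290, 0.00897 to 0.0353 and 0.0144 to 0.0467. For the range of means of the 4 compounds, Dyrk4 lost its call under quantile normalization (1.34, adjusted p = 0.0785), without the filter (1.44, 0.144), with detection on 1 array (1.44, 0.0822), and in 10 of the 15 fits without 1 array (1.20 to 1.85 over the 15, adjusted p 0.00172 to 0.119). Slamf9 lost it without the filter (0.70, 0.0624). Zfp185 gained it under quantile normalization (1.37), with the slide as a block (1.51) and without BDB replicate 1 or 3 (0.74 to 1.56 over all arrays left out).

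With the replicate block, DENN genes called against DOS were 3 and not 1 and LIM genes 3 and not 2, and no call of the 4 genes changed. Among the lists against DMSO, SLAM genes called were 0 under quantile normalization, normexp, the deposited table and no filter, DENN genes 2 with the slide block and 0 under normexp and no filter, kinases 0 under normexp, and LIM genes 2 without the filter or with detection on 1 array. Against DOS, LIM genes were 1 under quantile normalization and 0 under normexp and no filter, DENN genes 2 in the deposited table, 4 with the slide block and 0 under normexp and no filter, SLAM genes 1 with the slide block, and kinases 0 without the filter. Without 1 array, against DMSO, SLAM ran 0 to 1, DENN 1 to 2 and LIM 2 to 5, and against DOS, DENN ran 0 to 3 and LIM 0 to 2. Quantile normalization called 1233 genes higher and 1004 lower with DOM than with DMSO, where the main processing called 1056 and 1171. Normexp called 723 and 807. Brightness limits Dyrk4 under DOM, which was well above background on no DOM array, and Dennd2d under DOM, measured on 2 of 4 arrays.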
